A study of Rattus norvegicus with 20 samples.

Results

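The genes described here are those that carried a listed peak of the transcription factor NF-kB p65 on at least 15 of 20 promoter arrays of rat liver, whatever the diet and the time. There were 262 such genes among 14358 with a peak on any array, or 1.82%. They were counted by the gene name in the authors' peak lists, after 18 names that a spreadsheet had turned into dates were restored through their transcript accession. The listed peaks chose the genes, so the number of arrays, the peak scores and the high signal at these promoters are given as a description, with no test.

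Livers came from wild-type male Sprague Dawley rats, 8 to 10 weeks old per the labels, fed liquid diets for 5 weeks. Ethanol made up 36% of the calories in one diet, and carbohydrate took its place in the other, which was given by pair-feeding. A 70% partial hepatectomy followed. The left lateral and median lobes taken at the operation were the 0h tissue, and the remnant lobes were the 1h and 6h tissue, so time and lobe changed together. The groups were ethanol 0h (3 arrays), carbohydrate 0h (3), ethanol 1h (3), carbohydrate 1h (3), ethanol 6h (4) and carbohydrate 6h (4).

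NF-kB is a family of dimeric transcription factors that inhibitor proteins hold in the cytoplasm until a signal such as TNF or interleukin-1 frees them. The p65 subunit, encoded by Rela, then enters the nucleus, binds kappa B motifs and switches on genes of inflammation and survival. In liver, NF-kB is active in hepatocytes and Kupffer cells soon after partial hepatectomy, and it is known for protecting hepatocytes from death by TNF.

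Each array gave 1 log2 ratio of precipitated to reference DNA per probe, and promoter signal here is the mean of that ratio over the 500 bp window of each tiled promoter with the highest mean over all arrays. The direction of the deposited ratio was not stated, and all values were turned so that the authors' own peaks are positive, as at least 99.9% of peaks on every array required. The arrays held from 2874 to 9387 peaks each, and their number limits the precision. Array identifiers placed them in 4 runs, 11 slides and 16 animals. All 3 carbohydrate 0h arrays and 2 of the 3 ethanol 0h arrays were in the first run, which held no later time, so for most 0h arrays run and time cannot be told apart. The sixth 0h array, ethanol 0h replicate 2, shared run and slide with 2 arrays of 1h.

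A few sequences show what these promoters look like. The first set is of members whose peaks most often covered a position close to the listed start, at most 250 bp upstream. The second is of members with a match to the kappa B consensus. Both were drawn only from members with a single RefSeq promoter, on the chromosome and strand of the listed start. Sept14, described below, was not among these. All sequences are the 250 bases before the start in RefSeq (build GRCr8), 5′ to 3′ on the gene's strand. The start there need not be the base listed in the peak files, whose genome build is not stated. In the first set, capitals mark TATAAA, searched on both strands.
Fgf9, chr15:36327108-36327357, + strand: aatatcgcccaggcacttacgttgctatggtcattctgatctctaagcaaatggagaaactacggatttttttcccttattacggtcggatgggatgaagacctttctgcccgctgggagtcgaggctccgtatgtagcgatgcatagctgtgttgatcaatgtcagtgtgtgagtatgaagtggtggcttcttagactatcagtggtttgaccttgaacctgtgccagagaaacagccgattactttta
Pde1c, chr4:87108135-87108384, - strand: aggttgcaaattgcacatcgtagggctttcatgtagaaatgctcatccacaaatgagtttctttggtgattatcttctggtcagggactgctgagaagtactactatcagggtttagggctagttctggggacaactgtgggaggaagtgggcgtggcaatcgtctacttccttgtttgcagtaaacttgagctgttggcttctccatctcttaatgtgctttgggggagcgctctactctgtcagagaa
Lce1m, chr2:181334301-181334550, - strand: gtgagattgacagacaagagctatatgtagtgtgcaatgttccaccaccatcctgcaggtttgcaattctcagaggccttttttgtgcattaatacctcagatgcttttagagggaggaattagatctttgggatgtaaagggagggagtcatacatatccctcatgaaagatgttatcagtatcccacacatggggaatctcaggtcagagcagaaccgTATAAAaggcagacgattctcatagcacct
Fgf9, a secreted growth factor of the fibroblast growth factor family, had a peak on 15 arrays, and all 15 covered the same stretch, centred 87 bp upstream of the listed start. Pde1c, a phosphodiesterase that breaks down cyclic nucleotides, had peaks on 15 arrays, 13 of which covered a position 158 bp upstream. Lce1m, a late cornified envelope gene of skin, had 13 of 16 arrays at 122 bp upstream. Of these 3 sequences, Lce1m alone held TATAAA, which began 30 bases before the start.

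The second set holds 4 of the 7 members with a match to the kappa B consensus in these 250 bases, with the match in capitals. The match in Phf12 reads as one on both strands.
Phf12, chr10:63369999-63370248, + strand: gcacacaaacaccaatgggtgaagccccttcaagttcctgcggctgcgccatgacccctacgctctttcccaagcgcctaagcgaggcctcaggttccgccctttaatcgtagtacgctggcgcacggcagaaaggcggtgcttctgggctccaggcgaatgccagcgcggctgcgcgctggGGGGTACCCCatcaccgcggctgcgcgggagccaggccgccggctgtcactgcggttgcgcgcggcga
Dnajb3, chr9:96244359-96244608, - strand: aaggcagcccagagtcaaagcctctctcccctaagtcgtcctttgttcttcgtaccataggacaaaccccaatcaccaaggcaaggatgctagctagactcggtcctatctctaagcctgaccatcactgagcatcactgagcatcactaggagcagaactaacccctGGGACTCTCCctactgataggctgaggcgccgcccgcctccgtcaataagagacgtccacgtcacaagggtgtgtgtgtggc
Ift70b, chr3:81265646-81265895, - strand: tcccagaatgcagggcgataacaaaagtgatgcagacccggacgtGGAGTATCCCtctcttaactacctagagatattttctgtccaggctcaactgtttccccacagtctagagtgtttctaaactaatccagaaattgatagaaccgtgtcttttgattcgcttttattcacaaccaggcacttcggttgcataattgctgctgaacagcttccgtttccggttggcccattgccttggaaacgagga
Col27a1, chr5:81662658-81662907, + strand: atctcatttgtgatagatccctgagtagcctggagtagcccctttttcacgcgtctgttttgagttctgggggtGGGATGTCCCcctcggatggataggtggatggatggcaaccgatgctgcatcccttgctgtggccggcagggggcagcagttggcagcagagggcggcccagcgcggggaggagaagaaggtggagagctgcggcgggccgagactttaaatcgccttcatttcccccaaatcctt
Phf12, a subunit of a corepressor complex, had a peak on 17 arrays, and 14 of them covered a position 606 bp upstream of the listed start. Dnajb3, a heat shock cochaperone, had 15 of 16 arrays at 741 bp downstream. Ift70b, a subunit of the machinery that moves cargo in cilia, had 13 of 16 arrays at 2008 bp upstream. For Col27a1, a fibrillar collagen, 10 of 15 arrays shared a position 580 bp upstream. None of these 4 shared positions fell in the 250 bases printed.

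Among members, 214 had at least 1 promoter in RefSeq, 229 promoters in all. The kappa B consensus was found in 7 of them, or 3.06%, against 444 of 11723 promoters of the other genes in the peak lists, or 3.79%. The GC box GGGCGG occurred in 49.8% of member promoters and 46.4% of the others, TATAAA in 10.9% and 11.6% and CCAAT in 32.3% and 35.4%, each on either strand. A short CA repeat was found in 4 member promoters (1.75%) and 92 of the others (0.785%). The median content of G and C was 58.8% in members (quartiles 48.8% and 69.6%) and 56.8% in the others (48.4% and 64.4%). The median number of CG dinucleotides was 16 in member promoters and 12 in the others. A match describes letters in this window only, and most peaks lay outside it.

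Peaks on all 20 arrays were listed for Ado, Sept14, Shc3 and Galnt9. Ado, a thiol dioxygenase that oxidises cysteamine, and Sept14, a septin of the cytoskeleton, were the steadiest. On all 20 arrays the peak of Ado covered the same stretch of chromosome 20, from 21873183 to 21873527 in the coordinates of the files, centred 3785 bp upstream of the listed start. Its signal per array was 0.71, 0.68 and 0.55 in ethanol 0h and 0.75, 0.58 and 0.55 in carbohydrate 0h. At 1h it was 0.83, 0.65 and 0.81 in ethanol and 0.91, 0.78 and 0.73 in carbohydrate. At 6h it was 0.64, 0.61, 0.48 and 0.82 in ethanol and 0.60, 0.71, 0.65 and 0.68 in carbohydrate. All 20 values lay between 0.48 and 0.91, and the groups overlapped (mean 0.69 ± 0.11, SD, n = 20). Differences among the 6 groups did not pass the test at Ado (limma F-test, adjusted p = 0.864).

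Sept14 had a peak on all 20 arrays over chromosome 12, 27894570 to 27894924, centred 103 bp upstream of its listed start. Its signal was 0.79, 0.60 and 0.67 in ethanol 0h, against 0.68, 0.58 and 0.73 in carbohydrate 0h, and 0.58, 0.69 and 0.72 in ethanol 1h, against 0.93, 0.61 and 0.68 in carbohydrate 1h. At 6h it was 0.55, 0.47, 0.49 and 0.53 in ethanol, against 0.56, 0.49, 0.44 and 0.68 in carbohydrate. The lowest arrays were of 6h, but 6h and earlier arrays overlapped, and the groups did not differ by the test (mean 0.62 ± 0.12, SD, n = 20, limma F-test, adjusted p = 0.675). This gene had been split in the lists between its name and a date, and its accession was not among those matched in RefSeq.

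Shc3, an adaptor of receptor tyrosine kinases in neurons, was as frequent but less steady. Its signal ran from 0.30 to 1.33 (median 0.68), and 18 of 20 arrays shared a position 832 bp upstream. Galnt9, which starts O-linked glycosylation, was listed at 2 starts, with a peak on 19 arrays at one and on 14 at the other, and only 14 of 20 arrays shared a position. Signal at its more frequent start ran from 0.15 to 0.84 (median 0.53). Neither promoter passed the test among groups (limma F-test, adjusted p = 0.407 for Shc3 and 0.996 for Galnt9).

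**Figure D1:**
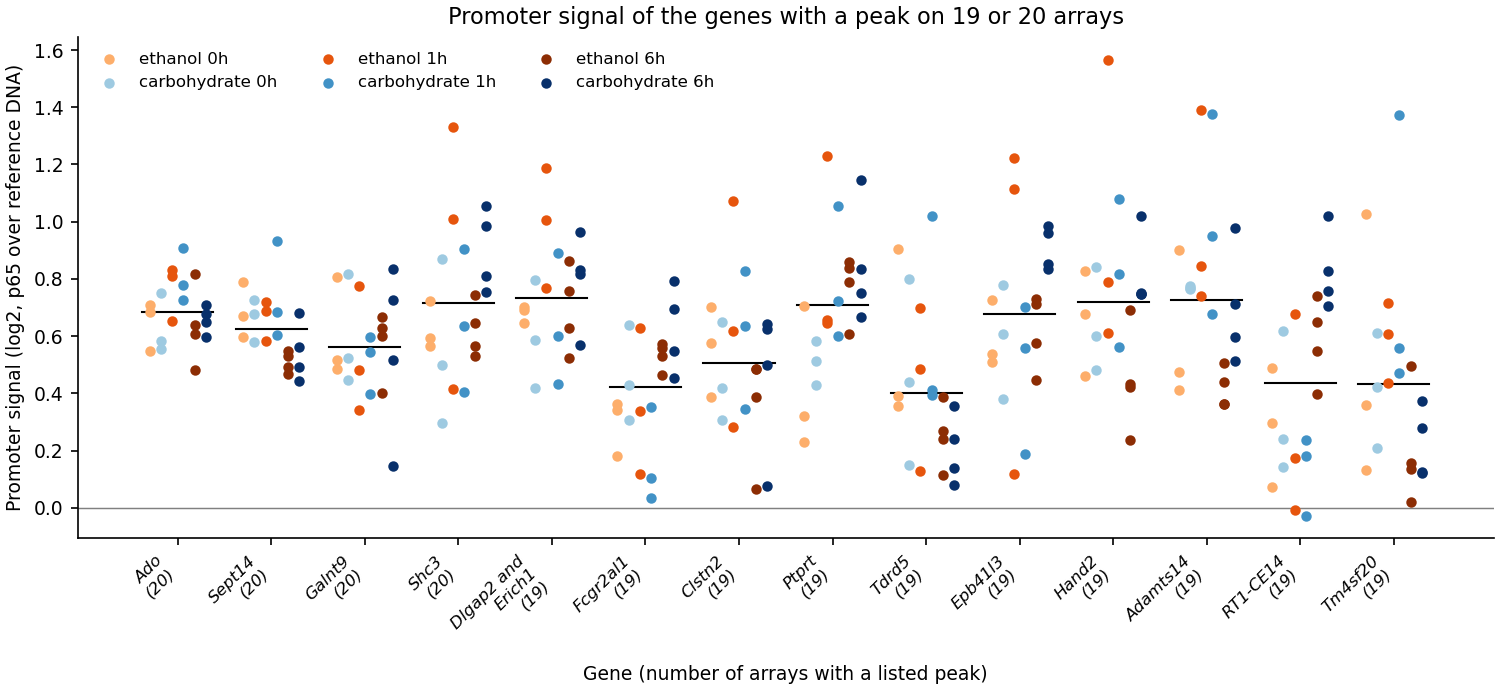
Promoter signal (log2 ratio, y axis) of the genes with a peak on 19 or 20 arrays (x axis), with 1 point per array coloured by diet and time and a black line at the mean of 20 arrays. Points of Ado lie between 0.48 and 0.91 and those of Sept14 between 0.44 and 0.93, while those of Tm4sf20 run from 0.02 to 1.37.

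Peaks on 19 arrays were listed for 11 genes of mixed function. Dlgap2, a scaffold of the postsynaptic density, and Erich1 share 1 promoter, where all 19 arrays had a peak over the same stretch, 1187 bp upstream of the start of Dlgap2 and 3802 bp upstream of that of Erich1. Signal there ran from 0.42 to 1.19 (median 0.73). Adamts14, a protease that trims procollagen, had 18 of its 19 arrays at 539 bp downstream, and Hand2, a transcription factor of heart and limb, had 17 at 384 bp downstream. Epb41l3, which ties membranes to the cytoskeleton, had 17 at 711 bp upstream, and the receptor phosphatase Ptprt had 15 at 794 bp downstream. Signal at these 4 promoters reached a mean between 0.68 and 0.73.

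Other genes with peaks on 19 arrays had them at changing places. For Tdrd5, a Tudor domain protein of germ cells, no position was covered on more than 8 of its 19 arrays, and its peaks lay from 4164 bp upstream to 884 bp downstream. Tm4sf20, a transmembrane protein, had at most 10 arrays at 1 position, the Fc receptor gene Fcgr2al1 had 13, and Clstn2, a calsyntenin of synapses, had 12. The class I histocompatibility gene RT1-CE14 had 11, with starts listed at several places on chromosome 20 and its unplaced contig, and its probes may also bind near-identical copies.

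This difference in position ran through all 262 genes. For each gene the largest number of arrays whose peaks covered 1 base was taken as a measure of how often the same position recurred. Its median was 11 arrays, with quartiles of 10 and 14 and a range from 5 to 20. As a share of the arrays with a peak, the median was 73.3%, against 72.7% for 2471 genes with peaks on 10 to 14 arrays. For 43 members, or 16.4%, at least 15 arrays covered 1 base, and for 59 fewer than 10 did. A gene was thus often counted on an array through a peak elsewhere in its promoter.

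Besides Ado, Sept14, Dlgap2 and Erich1, complete recurrence was seen at some promoters with fewer peaks. Pex5l, which regulates pacemaker channels of neurons, had all 18 arrays over 1 stretch at 1108 bp upstream. Nrxn2, a presynaptic adhesion protein, had all 15 at 408 bp upstream. The same held for Nr1h4, the bile acid receptor FXR, with 15 at 1687 bp upstream, and Adamtsl3, an extracellular matrix protein, with 15 at 1165 bp upstream. At the other end, Ncam2, a neural cell adhesion molecule, had 6 of 15, and Hpse, the enzyme that cleaves heparan sulfate, 5 of 15.

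The shared position lay upstream of the listed start in 193 of 262 genes, at a median of 1042 bp upstream and between 4950 bp upstream and 1038 bp downstream. It was within 500 bp of the start in 51 genes, from 500 to 2000 bp away in 130 and farther in 81. Over the peaks themselves, 1 per gene and array, the shares were near those of other genes. Within 500 bp lay 764 of 4247 member peaks and 17419 of 86136 peaks of other genes (20.2%), and at 2000 bp or more 33.1% and 33.6%. Upstream of the start were 75.1% of member peaks and 71.3% of the others.

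**Figure D2:**
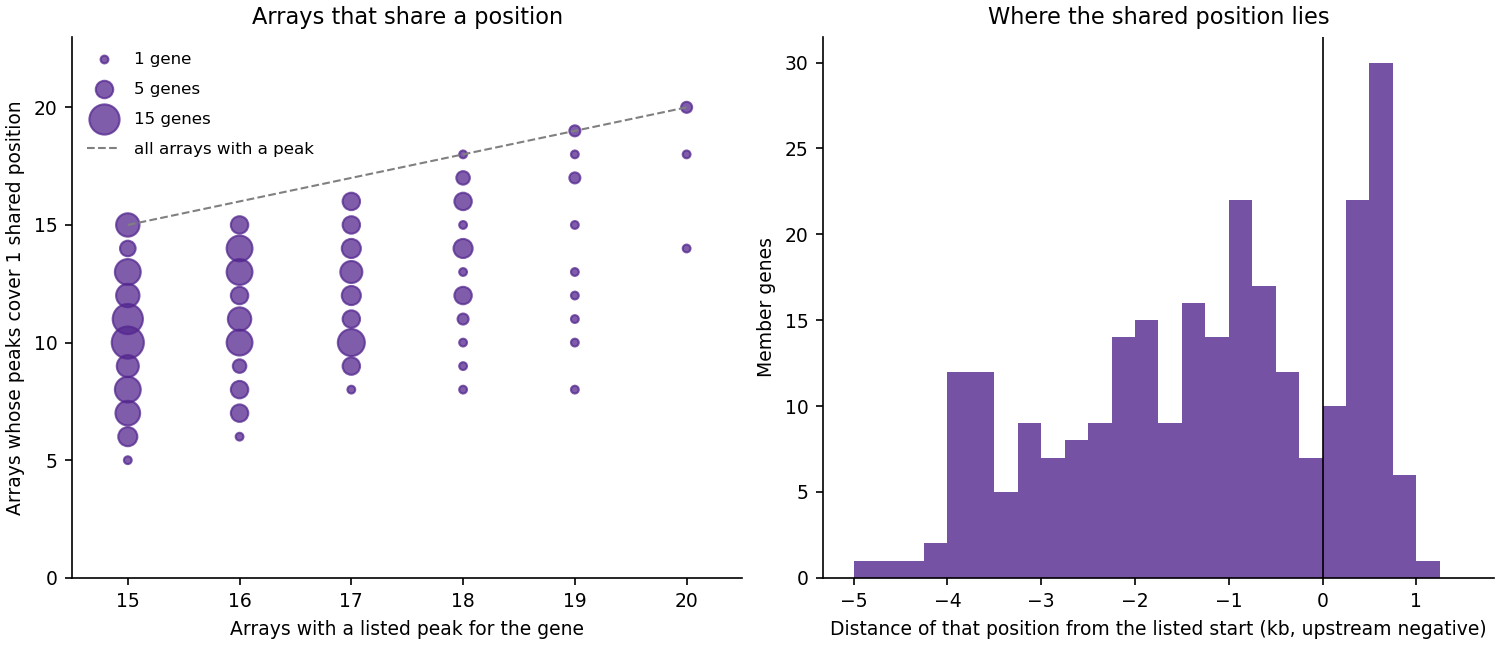
Left, the number of arrays with a listed peak (x axis) against the largest number of arrays whose peaks cover 1 base (y axis) for the 262 genes, with point area in proportion to the number of genes and a dashed line where all peaks share a position. Right, the number of genes (y axis) by distance of that position from the listed start in kb (x axis), with most positions (193) upstream.

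Some genes reached 15 arrays by adding up several places. Of the members, 29 had starts listed at several loci, or 11.1%, against 1.14% of the other genes. Only loci with a listed peak were counted, and several loci raise the number of arrays, so these shares are not independent of the rule. Pde4d, a phosphodiesterase with many transcript starts, had 7 listed starts, 1 of them, on an unplaced contig, with a peak on 17 arrays and the others on 2 to 7. With peaks counted at 1 tiled region only, 245 members remained and 17 fell below 15 arrays, among them Kcnk2, a potassium channel, Zfp955a, Aph1b and Hpse. In addition, 15 tiled promoters each served 2 members, such as the class I genes RT1-CE1 and RT1-CE14, Cyp4a2 and Cyp4a3, and Cd68 and Mpdu1, so the 262 genes stood for 247 promoters. The values of such pairs are the same measurement. Member regions had a median of 5287 bp and 52 probes, against 5275 bp and 50 probes for all, but 24 of them (9.72%) were longer than 8 kb, against 5.15% of all.

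Peak scores of members were above the middle of their arrays. The best score of each gene was ranked against the best scores of all genes with a peak on that array. The median of that percentile over arrays was taken. Over the 262 genes its median was 70.5, with quartiles of 59.0 and 80.6 and a range from 27.7 to 98.8. It passed 90 for 24 genes and was under 50 for 30. The highest were Sult1c2, a sulfotransferase (98.8), Pex5l (98.4), Eloa2l (96.3), Zfp800, a zinc finger protein (96.0), and Gpn1, a GTPase that brings RNA polymerase II to the nucleus (95.4). High values were also found for Ccdc68 (94.2), Epb41l3 (93.7), the ubiquitin-conjugating enzyme Ube2r2 (93.2) and the tryptophanyl-tRNA synthetase Wars1 (92.3). Frequency and strength were thus not the same, since Tdrd5 and Tm4sf20, with peaks on 19 arrays, had percentiles of 65.2 and 62.7.

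The FDR that the authors gave each peak was also lower for these genes. It was at most 0.05 for 61.2% of member peaks and 40.6% of peaks of other genes, and listed as 0 for 11.8% and 3.88%. Few genes would still have met the rule on such peaks, as 22 had one with an FDR of at most 0.05 on 15 arrays. The edge of the rule was gradual: the 101 genes at exactly 15 arrays had a median score percentile of 65.3 and a median signal of 0.42, and the 197 genes at exactly 14 arrays had 60.9 and 0.40. Just inside were, for example, Adamtsl3 (mean signal 0.54), Akap3, an anchoring protein of sperm (0.33), and Ankrd13d (0.33). Just outside were Abcb11, the bile salt export pump (0.28), Abhd13 (0.38), Adad1 (0.39) and Adam6 (0.39).

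On single arrays, a listed peak was present for 58.8% to 96.2% of the 262 genes, with a median of 80.9%. The lowest array was ethanol 6h replicate 2, with 154 genes, and the highest was carbohydrate 6h replicate 4, where 10 genes had none. Low arrays also included carbohydrate 0h replicate 1 (163) and carbohydrate 6h replicate 1 (171). These 3 arrays were also among those with the fewest peaks in all, 3602, 2874 and 3722. The share of other genes with a peak ran from 18.2% to 45.8%. The number of peaks went only partly with the number of members, since ethanol 0h replicate 1 had 3457 peaks and 211 members, while ethanol 0h replicate 2 and ethanol 1h replicate 1 had 5907 and 5916 peaks and 197 and 204 members. Its part in the result was not tested. By group, the members with a peak on every array of the group numbered 132 in ethanol 0h and 121 in carbohydrate 0h. They numbered 173 in ethanol 1h, 153 in carbohydrate 1h, 106 in ethanol 6h and 148 in carbohydrate 6h. Every array means 4 arrays in the 6h groups and 3 in the others, and the number of peaks differed between arrays. These counts use the same peaks as the rule and are not read as differences in binding.

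**Figure D3:**
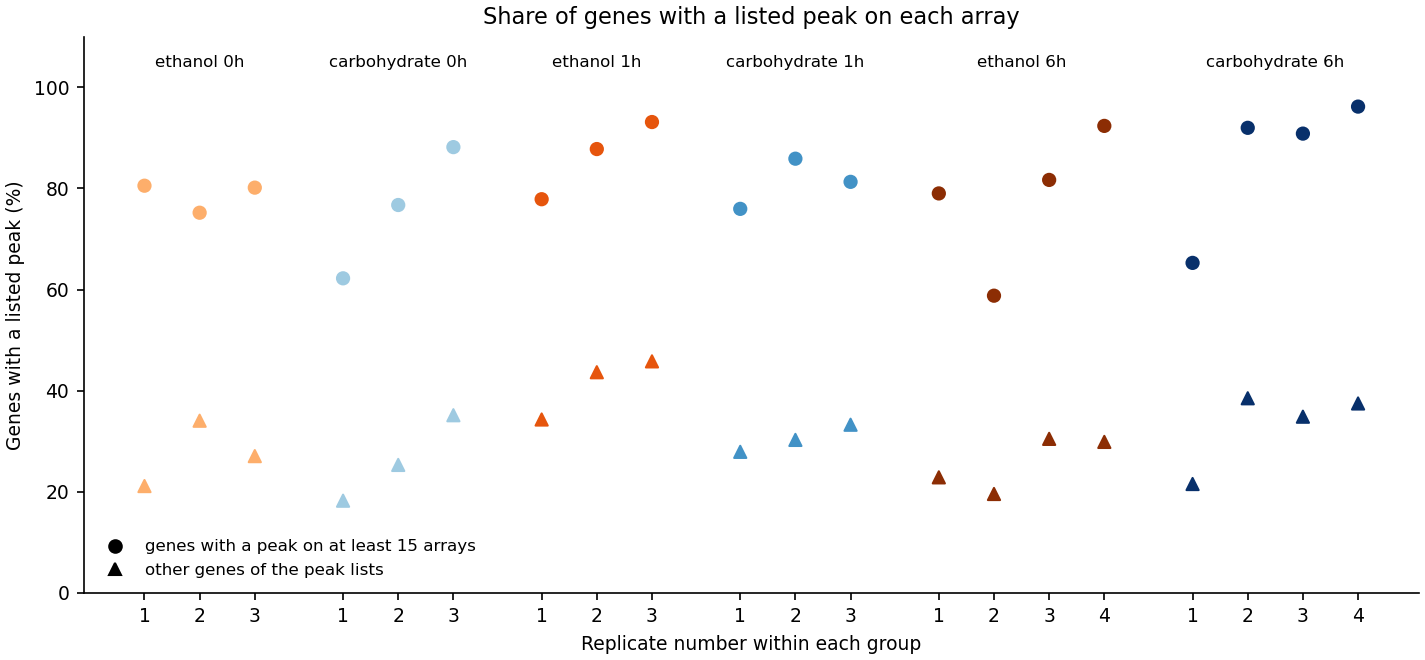
Share of genes with a listed peak (%, y axis) on each of the 20 arrays, grouped by diet and time, for the genes with a peak on at least 15 arrays (circles) and the other genes of the peak lists (triangles). Circles lie between 58.8% and 96.2% and triangles between 18.2% and 45.8%.

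Some members, 18 in all, had no peak on any array of 1 group. Without a peak in ethanol 0h were RT1-CE12, Pcdha9, Sertad4, Krt34 and Ryr2, and in carbohydrate 0h Setd4, Ism1, Zmynd15, Cbr1 and Plod3. In ethanol 1h they were Or2y15, Vom2r56 and Zfp955a, and in carbohydrate 1h Or4f14, Pcdha11, Tdrd7, Or5ae1 and Stxbp3. These names were taken after the values were seen.

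The gene lists used here for NF-kB held no member. None of 37 listed NF-kB targets with any peak was a member, none of 17 genes of the NF-kB pathway, and none of 30 immediate early genes. No gene of these lists had a peak on more than 12 arrays. The lists are not complete, and members such as Bcl2 and Azi2 were outside them. Over all genes with a peak the share of members was 1.82%, which for lists of this size means fewer than 1 gene, so a count of 0 is near the background. Members were found in the lists of synaptic and neuronal genes, 7 of 49 with a peak (14.3%), and of developmental transcription factors, 4 of 27 (14.8%). The median number of arrays in these lists was 6 and 7, against 6 for all genes. The lists were chosen with earlier results of these data known, so these shares are a description and were not tested.

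The synaptic members were Shc3, Dlgap2, Clstn2, Pex5l, Tenm2, Nrxn2 and Ncam2. Tenm2, a teneurin that joins synaptic partners, had a mean signal of 0.73 ± 0.24 (SD, n = 20), with 17 of 18 arrays at 453 bp upstream. Nrxn2 had 0.62 ± 0.36 and Ncam2 only 0.25 ± 0.40, with values from −0.39 to 1.17. The developmental factors were Hand2 (0.72 ± 0.29), Msx2, of limb and skull (0.43 ± 0.36), Six3, of forebrain and eye (0.46 ± 0.20), and Lhx2, of forebrain and hair follicle (0.55 ± 0.29). Lhx2 had 15 of 16 arrays at 1828 bp upstream, and Six3 and Msx2 had 14 at theirs. Many of these genes are little used in liver in textbook accounts, but their expression was not measured on these arrays.

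Genes of liver function were present as single members. Hpx, the plasma protein that binds free haem, was the only 1 of 23 acute phase and plasma protein genes with a peak, with 17 arrays. Its signal was −0.03, 0.41 and 0.30 in ethanol 0h, against 0.04, 0.05 and 0.27 in carbohydrate 0h. At 1h it was 0.11, 0.70 and 0.99 in ethanol, against 0.11, 1.21 and 0.77 in carbohydrate, and at 6h 0.59, 0.68, 0.54 and 0.88 in ethanol, against 0.35, 0.83, 0.46 and 0.76 in carbohydrate. No 0h array exceeded 0.41, but the groups overlapped and did not pass the test (limma F-test, adjusted p = 0.0880).

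Nr1h4 was the only member among 27 genes of hepatocyte metabolism with a peak. Its signal was 0.75, 0.70 and 0.52 in ethanol 0h, against 0.33, 0.76 and 0.76 in carbohydrate 0h. At 1h it was 0.63, 0.60 and 0.77 in ethanol, against 0.68, 0.78 and 0.74 in carbohydrate, and at 6h 0.49, 0.18, 0.07 and 0.46 in ethanol, against −0.07, 0.31, 0.47 and 0.48 in carbohydrate. All 8 arrays of 6h lay below all 6 of 1h, and the F-test over the 6 groups gave an adjusted p of 0.0637 (limma). Cd68, a lysosomal protein of macrophages that shares its promoter with Mpdu1, was the only member among 5 Kupffer cell and macrophage markers with a peak, with a signal from −0.11 to 0.86 (median 0.43). No marker of hepatocytes (0 of 8 with a peak), stellate cells (0 of 6), sinusoidal endothelium (0 of 3), cholangiocytes (0 of 3) or lymphocytes and neutrophils (0 of 9) was a member. In whole tissue, fewer cells with binding and less binding per cell cannot be told apart.

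Gene families gave a few members each. Among cadherins and protocadherins, which join cells, 5 of 60 were members (8.33%): Pcdhb4, Pcdhga5, Pcdha11, Pcdha4 and Pcdha9. Keratins gave 4 of 44 (9.09%), namely Krt33a, Krt28, Krt31 and Krt34, and class I and II histocompatibility genes 3 of 42 (7.14%), RT1-CE14, RT1-CE1 and RT1-CE12. Members of these families lie close together on a chromosome and resemble each other in sequence, so their probes may not be independent. Teneurins, calsyntenins and contactins gave 2 of 9, Tenm2 and Clstn2, and polypeptide GalNAc transferases 1 of 12, Galnt9.

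Larger families gave shares from below to above the 1.82% of all genes. Olfactory receptors gave 5 of 1188 (0.421%), Or2y15, Or4f14, Olr1451, Or5ae1 and Or52ac1, each on 15 arrays, and vomeronasal and taste receptors 1 of 138, Vom2r56. Solute carriers gave 4 of 309 (1.29%): Slc15a1, the intestinal peptide carrier, Slc25a4, a mitochondrial carrier of ADP and ATP, Slc6a20a and Slc33a1. Ribosomal proteins gave 3 of 143 (2.10%), Mrpl15, Rpl28 and Rps29, and zinc finger proteins 4 of 165 (2.42%), Zfp322a, Zfp800, Zfp955a and Znf57l. Potassium channels gave 3 of 82 (3.66%), Kcnd2, Kcnk2 and Kcna3, and cytochromes P450 2 of 60 (3.33%), Cyp4a2 and Cyp4a3, which oxidise fatty acids and share a promoter. Gpr12, an orphan receptor, Ptprt, and Adamts14 with Adamtsl3 were the members of 3 further families. Genes without a name of their own in the lists gave 22 of 1231 (1.79%), of which most carry a symbol in RefSeq today, such as Notum, an inhibitor of Wnt signalling, and Fcgr2al1.

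Members lay on all chromosomes, from 2 of 320 genes with a peak on X to 10 of 319 on 18 (3.13%). On unplaced contigs they were 5 of 92, or 5.43%.

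The level of signal was high at nearly all of these promoters, which the rule favours. Mean signal over the 20 arrays ran from 0.21 to 0.89, with a median of 0.46 and quartiles of 0.38 and 0.53, against a median of 0.23 for all other promoters (quartiles 0.17 and 0.29). It was in the top 10% of all promoters at 204 of the 247 member promoters and in the top 1% at 77. Pex5l was highest, at 0.89 ± 0.41 (SD, n = 20), followed by Amhr2, the receptor of anti-Müllerian hormone (0.76 ± 0.22), Rnase4, a secreted ribonuclease (0.75 ± 0.36), and the promoter of Dlgap2 and Erich1 (0.73 ± 0.19). Lowest were Pde4d (0.21 ± 0.14), Hpse (0.23 ± 0.33), Ncam2, Rasgrf2, an exchange factor of Ras (0.26 ± 0.22), and Pappa, a protease of the insulin-like growth factor system (0.26 ± 0.25).

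A high level went with no smaller spread between replicates. The SD within groups, pooled over the 6 groups, had a median of 0.21 at member promoters (quartiles 0.18 and 0.25), against 0.17 over all promoters. Among 838 other promoters with a mean signal in the same middle range as the members, it was 0.21, equal to that of the 123 members in that range. The steadiest were Sept14 and Ado (0.10 each), Lgalsl, a galectin-like protein (0.10), Azi2, an adaptor of the kinase TBK1 (0.11), and Mgll, the lipase of monoglycerides (0.11). The most variable were Pex5l (0.42), Or2y15 (0.38), Ddc, the decarboxylase that makes dopamine and serotonin (0.37), Ncam2 (0.35) and Tmem252 (0.33). Signal was above 0 on all 20 arrays at 128 of the 247 member promoters, or 51.8%, against 10.7% of all promoters. In the same middle range of mean signal, the median number of arrays above 0 was 20 for members and 19 for other promoters.

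Pex5l shows how a strong promoter can still vary. Its signal was 1.16, −0.03 and 0.83 in ethanol 0h, against 0.99, 1.06 and 1.35 in carbohydrate 0h, and 0.54, 0.45 and 1.56 in ethanol 1h, against 1.03, 1.30 and 0.63 in carbohydrate 1h. At 6h it was 0.41, 0.47, 1.09 and 0.53 in ethanol, against 1.22, 0.99, 0.73 and 1.48 in carbohydrate. Ethanol 0h replicate 2 alone was below 0. Values overlapped between the diets at each time, and the groups did not differ by the test (limma F-test, adjusted p = 0.387).

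**Figure D4:**
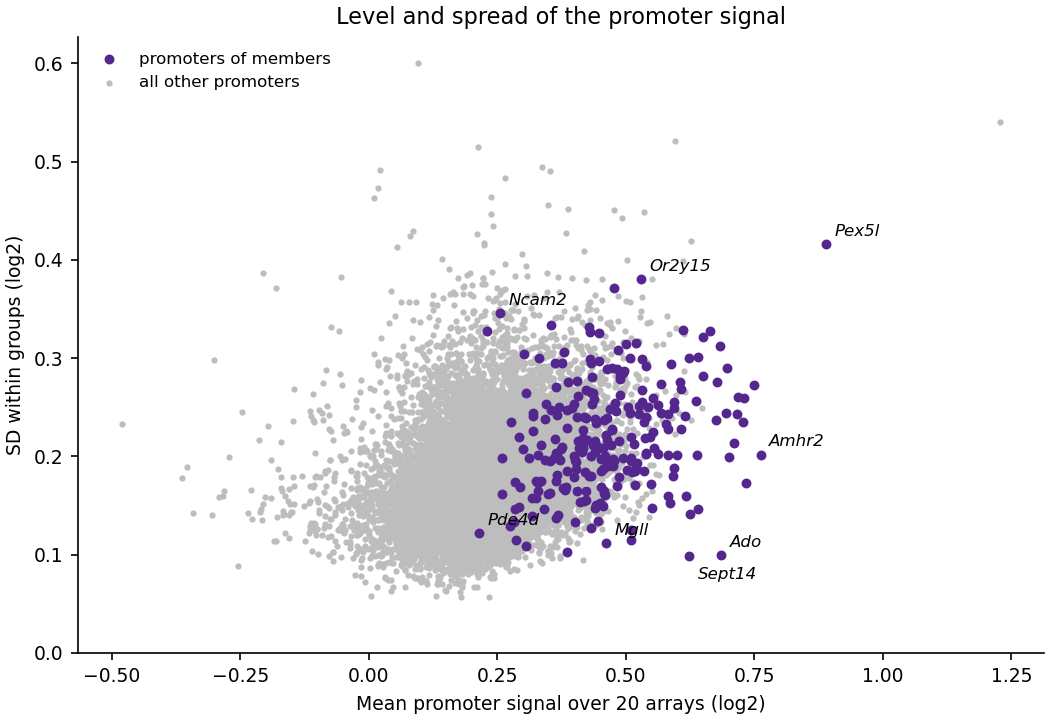
Mean promoter signal over 20 arrays (log2, x axis) against the SD within groups (log2, y axis), for the 247 promoters of members (purple) and all other promoters (grey). Members lie to the right, with a median signal of 0.46, and Ado and Sept14 stand out by a small SD of 0.10.

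Whether promoter signal at these genes differed between groups was tested with limma over all 14540 promoters, with Benjamini-Hochberg adjustment and a threshold of 0.05. That signal is of 1 window of 500 bp per tiled promoter, chosen without the listed peaks, so it need not be the strength of those peaks. Of the 247 member promoters, 74 passed the F-test over the 6 groups, or 30.0%, against 40.0% of all promoters. The rule chose members by peaks on these same arrays, so the lower share is not read as a finding, and its cause was not tested. The SD between group means had a median of 0.19 at member promoters and 0.16 over all promoters. Where the test was passed, ethanol 1h was the highest group at 32 promoters, carbohydrate 6h at 26, carbohydrate 1h at 7, ethanol 0h at 5, and ethanol 6h and carbohydrate 0h at 2 each. Ethanol 1h was thus highest at 43.2% of these member promoters, against 25.2% of all 5820 promoters past the test, and carbohydrate 6h at 35.1%, against 42.5%. Listed peaks chose the members, and they were most numerous on ethanol 1h replicates 2 and 3 (8435 and 9387). The difference in these shares was not tested and is not read as a finding. The smallest adjusted p belonged to Atf4, a transcription factor of the stress response (0.000188), Gstm1, a glutathione transferase (0.000265), Pank1, which starts coenzyme A synthesis (0.000604), Pcdha9 (0.000640) and Bmal1, a core factor of the circadian clock (0.000710).

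Atf4 and Gstm1 were high on arrays of 1h. Atf4 had signals of 1.24, 1.58 and 1.44 in ethanol 1h, against 0.32, 1.20 and 0.23 in ethanol 0h. In carbohydrate it had 0.75, 1.22 and 0.83 at 1h, against −0.04, 0.21 and 0.12 at 0h. At 6h it was 0.32, 0.02, 0.26 and 0.38 in ethanol and 0.17, 0.39, 0.35 and 0.30 in carbohydrate. The groups at 1h lay above 0h in both diets without overlap, and ethanol 0h replicate 2 (1.20) was near ethanol 1h replicate 1 (1.24), though not carbohydrate 1h replicate 1 (0.75), both of its own run and slide.

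Gstm1 had 1.17, 0.77 and 0.38 in ethanol 1h, against 0.32, 1.02 and 0.12 in ethanol 0h, and 0.89, 1.35 and 0.61 in carbohydrate 1h, against −0.28, 0.24 and 0.09 in carbohydrate 0h. At 6h its 8 values lay between −0.34 and 0.17. The groups at 1h and 0h did not overlap in carbohydrate and did in ethanol, where ethanol 0h replicate 2 again had the highest value of its group.

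The diets did not differ at any member promoter past the threshold. For ethanol against carbohydrate, limma called 0 member promoters at 0h, at 1h and at 6h, as it called 0.0% of all promoters each time. At an unadjusted p under 0.05 there were 19, 22 and 29 member promoters (7.69%, 8.91% and 11.7%, against 7.61%, 8.18% and 10.9% of all). The median difference over members was 0.08 at 0h, 0.15 at 1h and −0.15 at 6h, and over all promoters 0.06, 0.03 and −0.11. Within the third run, where both diets had 1h and 6h arrays, 10 member promoters were higher in ethanol at 1h and 7 were lower in ethanol at 6h, among 358 and 262 promoters called in all, in fits of fewer arrays (2 against 2 and 4 against 3).

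At 1h in carbohydrate, 16 member promoters passed against 0h, 14 higher and 2 lower, or 6.48%, against 11.1% of all promoters, where 8.64% were higher and 2.46% lower. Gstm1 rose most, to 0.95 ± 0.37 at 1h, against 0.01 ± 0.27 at 0h (SD, n = 3 each, log2 difference 0.94, SE 0.20, limma, adjusted p = 0.00707). Next were Atf4 (difference 0.83, SE 0.20), Gpr12 (0.71, SE 0.20) and Eloa2l (0.69, SE 0.23). Those that fell were Snap91, a clathrin adaptor of synapses, which had 0.15, −0.07 and −0.30 at 1h, against 0.47, 0.45 and 0.87 at 0h (difference −0.67, SE 0.18), and Rtca, an RNA cyclase (−0.47, SE 0.14). The median difference was 0.11 over members and 0.07 over all promoters.

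These calls turned on the scaling, the run and single arrays. With arrays scaled to the same spread, 5 were higher and 14 lower of 19 member promoters called, against 851 higher and 1029 lower of 1880 among all promoters. Without carbohydrate 1h replicate 2 none of the 16 was left (2.10% of all promoters were called). There were 5 calls without carbohydrate 0h replicate 2 (4.16% of all), 9 without its replicate 1 (5.58%) and 10 without carbohydrate 1h replicate 1 (6.18%). With the array run as a term, 0 members and 5 of all promoters were called, and Atf4 and Eloa2l turned to −0.27 and −0.17. The carbohydrate arrays of 0h and of 1h had no run in common. With the run term, the first run was tied to the others only through ethanol 0h replicate 2. Differences from 0h in that fit, here and below, thus rest on that array.

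At 6h in carbohydrate, 44 member promoters passed against 0h, 43 higher and 1 lower, or 17.8%, against 20.6% of all promoters, where 18.6% were higher and 2.02% lower. Pcdha9, a protocadherin of neurons, had 1.06, 1.20, 0.96 and 1.04 at 6h, against 0.10, −0.12 and 0.31 at 0h (difference 0.97, SE 0.20, limma, adjusted p = 0.00194). Senp17, of the family of SUMO proteases, had 0.93, 0.96, 0.97 and 0.85, against −0.09, −0.12 and 0.36 (0.88, SE 0.16, adjusted p = 0.00103). Eloa2l rose by 0.88 (SE 0.21) and the shared promoter of Ift70a2 and Ift70b by 0.80 (SE 0.19). Ism1 and Plod3, also called higher, had no listed peak on any carbohydrate 0h array and met the rule through the other groups. Their rises are thus not independent of the rule. Satb1, which organises chromatin loops, was the 1 that fell, with 0.13, 0.43, 0.05 and 0.32 at 6h, against 0.81, 0.87 and 0.74 at 0h (−0.58, SE 0.19, adjusted p = 0.0344).

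The median difference was 0.18 over members and 0.15 over all promoters. With scaled arrays 23 were higher and 14 lower of 37 member promoters called, against 1878 higher and 907 lower of 2785 among all promoters. With the array run as a term none of the members was called (52 of all promoters), and Satb1 turned to 0.51, while Senp17 kept a difference of 0.76 without passing. Leaving out carbohydrate 0h replicate 2 left 3 calls (3.49% of all promoters), and leaving out replicate 3 of that group gave 70 (28.6% of all).

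In ethanol, 0 member promoters passed at 1h against 0h and 2 at 6h (0.810%), against 0.275% and 0.997% of all promoters (0.248% higher and 0.0275% lower at 1h, 0.371% higher and 0.626% lower at 6h). At an unadjusted p under 0.05 there were 44 and 47 of the 247, against 2363 (16.3%) and 3021 (20.8%) of the 14540 promoters in all, shares close to those of members. Pcdha9 rose in ethanol too, with 0.51, 0.72, 1.13 and 0.74 at 6h, against −0.32, −0.06 and 0.14 at 0h (difference 0.85, SE 0.20, limma, adjusted p = 0.0355). Ddc fell, with 0.14, −0.22, −0.01 and 0.37 at 6h, against 1.17, 1.25 and 0.55 at 0h (−0.92, SE 0.23, adjusted p = 0.0403). Neither overlapped between times. Pcdha9 had no listed peak on any ethanol 0h array and met the rule through the other groups, so its rise is not independent of the rule. Both calls were lost with the run as a term (0.10 and −0.29), which called 8 other member promoters, all lower, and 574 of all promoters, 502 of them lower. No member was called with the slide as a random block or with the mean of the tiled region. The same held without any 1 of ethanol 0h replicates 1 and 2 and ethanol 6h replicates 2 and 3. At most 0.358% of all promoters were called in those settings. Whether the diets differed in these changes over time was not tested here.

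**Figure D5:**
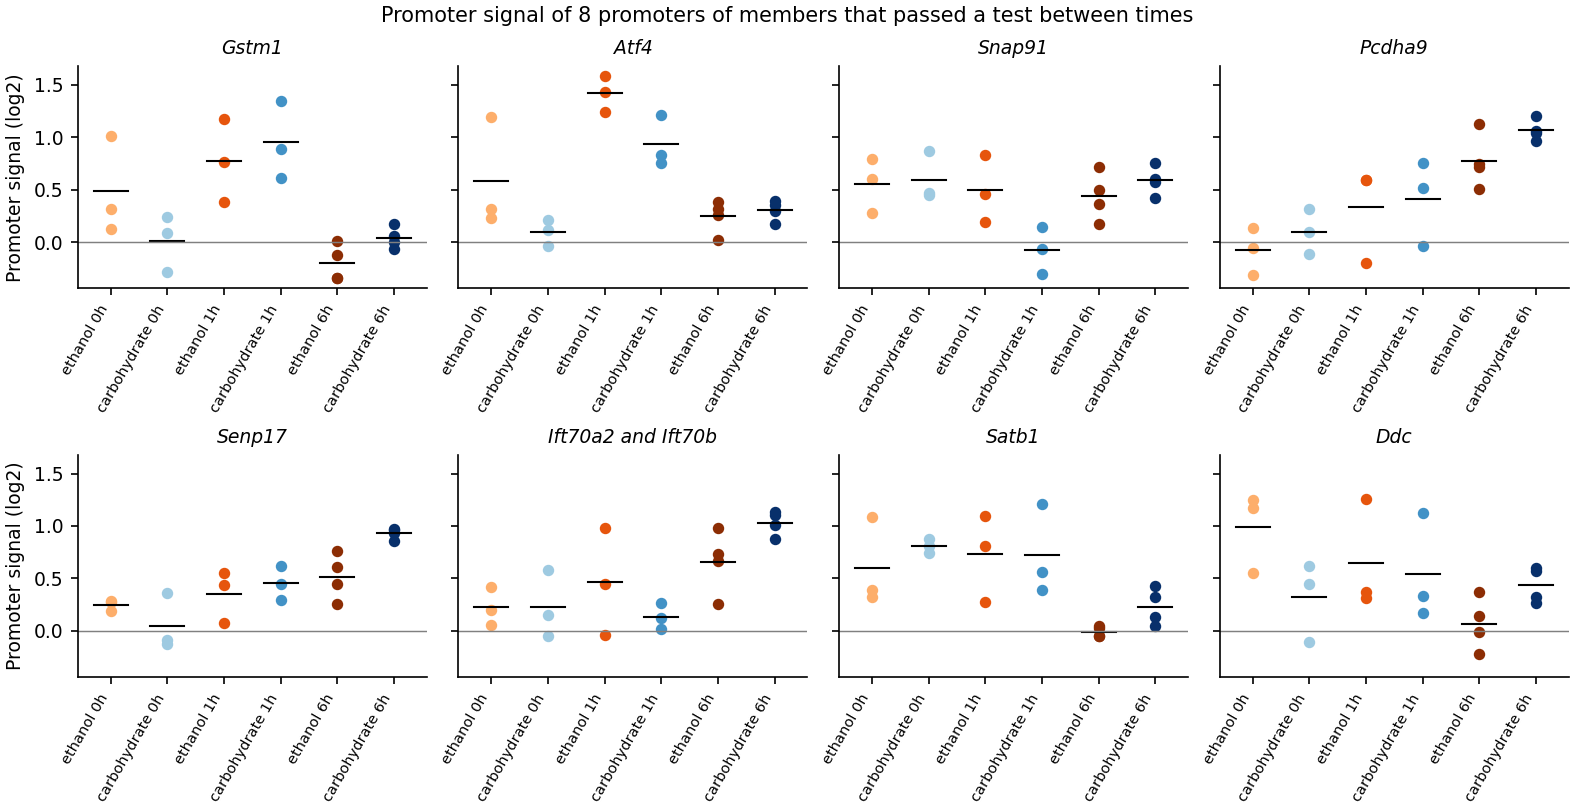
Promoter signal (log2, y axis) on every array, by diet and time (x axis), at 8 promoters of members that passed a test between times, with a black line at each group mean. Atf4 and Gstm1 are high at 1h, and Pcdha9 lies between 0.96 and 1.20 in carbohydrate 6h, against −0.12 to 0.31 in carbohydrate 0h.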

How the data were processed

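Immunoprecipitated DNA was compared with a reference DNA on 2-colour NimbleGen promoter tiling arrays. The Cy5 channel held the p65 precipitate. The Cy3 channel was input by its label and IgG precipitate by the labelling text, which was not settled here. The authors deposited 1 log2 ratio per probe for 713735 probes, with centring and direction unstated, and column medians from -0.02 to 0.02. Per the file headers, the authors also listed peaks per array, each with a score of unstated scale and an FDR, a kind of q-value, of at most 0.2. The caller and genome build are not given in the sources used here.

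Log2 ratios were centred on each array's median and multiplied by -1, the likely direction, since the peaks lie at negative values. Probes were joined into 14723 regions at gaps under 1000 bp, of which 14540 with a window of 4 or more probes in 500 bp were tested. limma 3.58.1 (R 4.3.3; lmFit and eBayes with a trend) fitted 6 group means to all 20 arrays, two-sided, with Benjamini-Hochberg adjustment. The script was tested on simulated data for the F-test, where 89% of changes of 0.8 and 11% of changes of 0.4 were recovered, with 9 false calls. The simulation raised 200 promoters in ethanol 6h only. Its noise was independent, with no effect of run, slide or animal, so it does not show recovery where such effects are present. Other steps used Python 3.11.15. Replicates were samples that the labels number separately, from 16 animals, 4 of which gave 2 arrays. Of 14678 transcript accessions, 13678 matched RefSeq (GRCr8), used for names and promoter sequences only.

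The members and the gene lists were chosen with earlier results of these data known. Named genes were members with peaks on 19 or 20 arrays, the 10 highest score percentiles, the largest called changes, the extremes of signal and spread, list and family members, and neighbours of the threshold by alphabet; a few that met the rule are not reported here. Genes shown for their sequence, for a shared position or for a missing group were chosen after their values were seen.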

Additional observations from a re-analysis of the deposited data

Results flagged for a closer look

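Single arrays stood apart from the others of their group of 4 in promoter signal by Dixon's test in 4 cases, of 68 groups tested at 34 promoters. Chance alone marks about 1 in 20 groups. Hand2 had 1.02 in carbohydrate 6h replicate 4, where the other arrays had 0.75 each. Bmal1 had 0.13 in carbohydrate 6h replicate 3, where the others had 0.21 to 0.22. In ethanol 6h, Ccdc68 had 0.27 in replicate 3 (0.81 to 0.92 in the others) and Gpn1 had 0.44 in replicate 2 (0.82 to 0.88). The cause was not tested.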

How the results depend on the processing

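The number of members moved with the rule: 757 genes had peaks on at least 13 arrays and 95 on at least 17, and with peaks of FDR at most 0.05, FDR at most 0.1 or within 2000 bp of the start, 22, 68 and 102 genes reached 15 arrays. Without 1 array, 166 to 209 genes still reached 15, with 174, 174 and 166 without carbohydrate 6h replicates 2, 3 and 4. With the array run as a term, 0 member promoters were called at 1h in carbohydrate (0.0344% of all promoters) and 0 at 6h (0.358% of all). That term called 8 at 6h in ethanol (3.24% against 3.95% of all) and 1 for diet at 1h (0.405% against 0.323%). For differences from 0h, that fit tied the first run to the others only through ethanol 0h replicate 2. Within the third run, chosen after seeing the data, 10 member promoters (4.05%) were called for diet at 1h and 7 (2.83%) at 6h. Of all promoters, 2.46% and 1.80% were called there. With the mean of the tiled region the member calls were 115 (F-test, 46.6% against 55.8% of all promoters) and 45 (carbohydrate 1h, 18.2% against 34.7%). They were 14 for carbohydrate 6h (5.67% against 9.72%), 17 for ethanol 1h (6.88% against 3.70%) and 0 for ethanol 6h (0.0% of all). In the deposited direction they were 12 (F-test, 4.86% against 7.47% of all), 12 (carbohydrate 6h, 4.86% against 4.92%) and 1 (ethanol 6h, 0.405% against 0.0481%). With scaled arrays they were 1 (ethanol 1h, 0.405% against 0.633%) and 18 (ethanol 6h, 7.29% against 5.25%). The slide as a random block, also added later, gave 0 at 6h in ethanol, against 0.358% of all promoters. Atf4 and Eloa2l reversed to -0.27 and -0.17 at 1h in carbohydrate with the run as a term, and Satb1 at 6h to 0.51 with that term and to 0.077 with the tiled mean. The cause was not tested. Replicate numbers were not used as pairs in the main fit. The correlation of deviations had a median of 0.097 (-0.22 to 0.50) over 46 pairs of the same number. Over 120 pairs of different number the median was -0.0095 (-0.43 to 0.37). With the replicate block, 2 member promoters were called at 1h in ethanol (0.810% against 0.818% of all). At 6h in ethanol 9 were called (3.64% against 2.62%), and by the F-test 79 (32.0% against 38.5%). Each array was left out in turn, and the range of the share of all promoters called is given in brackets. Member calls were 57 to 105 by the F-test (31.1% to 48.6%) and 0 to 4 for diet at 1h (0.0% to 1.26%). In carbohydrate they were 0 to 16 at 1h (2.10% to 9.15%) and 3 to 70 at 6h (3.49% to 28.6%). In ethanol they were 0 to 26 at 1h (0.00688% to 8.69%) and 0 to 20 at 6h (0.0% to 8.92%). At 1h in carbohydrate, 9 and 5 calls were left without carbohydrate 0h replicates 1 and 2. Without carbohydrate 1h replicates 1 and 2, 10 and 0 were left. Of all promoters, 5.58%, 4.16%, 6.18% and 2.10% were called in these fits, against 11.1% with all arrays. At 6h in carbohydrate, 12, 3 and 70 were called without carbohydrate 0h replicates 1, 2 and 3 (7.46%, 3.49% and 28.6% of all promoters). Without carbohydrate 6h replicates 2, 3 and 4, 28, 27 and 21 were called (14.7%, 15.1% and 13.3% of all). With all arrays 20.6% of all promoters were called. In ethanol at 1h, 15 and 26 were called without ethanol 0h replicate 2 and ethanol 1h replicate 1 (8.47% and 8.69% of all promoters). Leaving out ethanol 1h replicate 1 also gave the 4 for diet (1.26% of all). In ethanol at 6h, the 2 calls became 20 without ethanol 0h replicate 3 (8.92% of all promoters). They became 1 without ethanol 6h replicate 1 or 4 (0.268% and 0.543% of all). Without ethanol 0h replicate 1 or 2 or ethanol 6h replicate 2 or 3 they became 0. There at most 0.0138% of all promoters were called. Diet calls at 0h stayed at 0 under all alternatives run. Of the other values for single genes, 99 kept direction and threshold and 60 kept direction only.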
